A study of Mus musculus with 12 samples.

Results

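The genes described here encode the subunits of the volume-regulated anion channel (Lrrc8a, Lrrc8b, Lrrc8c, Lrrc8d and Lrrc8e) and the kinases of the WNK pathway (Wnk1, Wnk2, Wnk4, Stk39 and Oxsr1), 10 of the 52015 genes with a usable value. They were chosen by name for their function. RNA-seq was run on mpkCCD cells, a mouse cell line of the cortical collecting duct, in order to ask how the response to a hypertonic medium depends on the transcription factor NFAT5. The control cells (Scr) had been transduced with a scrambled guide RNA that targets no gene, and the Nfat5-KO cells were clones N1 and N3, in which Nfat5 had been deleted by CRISPR/Cas9. Every group was cultured for 5 days. Scr_300 (2 libraries) and Nfat5-KO_300 (4 libraries) were kept at 300 mosmol/kg, and Scr_600 (2 libraries) and Nfat5-KO_600 (4 libraries) at 600 mosmol/kg, reached by adding 100 mM NaCl and 100 mM urea. The knockout groups held 2 clones, so an effect of cloning and an effect of the deletion cannot be told apart.

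The values used are fragments per kilobase of transcript and per unit of mapped fragments (FPKM), of which the table holds 1 per gene for each of the 4 groups. The spread between libraries and the read depth were therefore unknown, no p-value, SD or detection limit could be given, and none of the differences below has a replicate check. A ratio is given as the log2 of the ratio of FPKM + 0.1, for genes that reached 0.5 FPKM in 1 or both of the groups compared, and a gene is called higher or lower where this ratio reached 1.5-fold (0.58 on the log2 scale). The 4 comparisons share groups with each other, so each is described by its own values.

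Nfat5 itself had 5.61 FPKM in Scr_300, 7.93 in Scr_600, 3.47 in Nfat5-KO_300 and 6.88 in Nfat5-KO_600. Its transcript was thus still present in the knockout cells, and the log2 ratio of Nfat5 against Scr was -0.68 at 300 and -0.20 at 600 mosmol/kg. An FPKM over the whole gene does not show whether a small deletion disrupts the protein. All 5 epithelial markers (Cdh1, Epcam, Krt8, Krt18 and Cldn4) were well expressed in every group, but of 10 principal cell markers only 3 or 4 per group reached 0.5 FPKM. The water channel gene Aqp2 was at 0.245 FPKM or less in each group, and the vasopressin receptor gene Avpr2 at 0.0193 or less. The summed level of the principal cell markers was 9.84 FPKM in Scr_300, 8.68 in Scr_600, 20.5 in Nfat5-KO_300 and 46.4 in Nfat5-KO_600, mostly through Gata3, Scnn1a and Hsd11b2. Markers of proximal tubule, thick ascending limb, fibroblasts and endothelium summed to 1.08 FPKM or less in any group, those of intercalated cells to 1.04 or less, and those of leukocytes to between 1.45 and 2.67, nearly all from Cd68. Foxi1, the defining factor of intercalated cells, was listed at 0 in every group, and the leukocyte marker Ptprc had at most 0.0224 FPKM. The part of the shift in principal cell markers in the results below was not tested.

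LRRC8A is the subunit that a functional volume-regulated anion channel cannot do without. It assembles into hexamers with the other LRRC8 proteins, opens when cells swell and lets chloride and organic osmolytes out, and the partner subunits set which solutes pass. When cells shrink or cell chloride is low, WNK kinases activate SPAK (Stk39) and OSR1 (Oxsr1), which phosphorylate cation-chloride cotransporters, so that NKCC1 is switched on and the KCCs are switched off. In the distal nephron WNK1 and WNK4 are best known for their control of salt and potassium transport.

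Lrrc8b, Lrrc8c and Lrrc8d lie next to each other on the plus strand of mouse chromosome 5 (chr5:105415775-105832436 in GRCm38), within 416.662 kb, with gaps of 29313 bp and 86950 bp between the genes. Lrrc8a lies at chr2:30237715-30263790 and Lrrc8e at chr8:4226827-4237470, both on the plus strand. In these 5 genes the coding sequence has 1 or 2 coding exons, and the largest of them holds 88.8% (Lrrc8a and Lrrc8b), 94.3% (Lrrc8c), 100% (Lrrc8d) and 94.2% (Lrrc8e) of the coding bases. The kinase genes are split much further. The longest coding transcripts of Wnk1 (chr6:119923969-120038672, minus strand) and Wnk2 (chr13:49036303-49148014, minus strand) have 28 coding exons each, and those of Wnk4 (chr11:101260567-101277409, plus strand), Stk39 (chr2:68210445-68472268, minus strand) and Oxsr1 (chr9:119238432-119322427, minus strand) have 18 each. Gene positions and exons are those of GENCODE M21.

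Promoter windows, 250 bases before to 50 bases after an annotated start, were held by RefSeq (GRCm38.p6) for all 10 genes, with 11 windows because Lrrc8d had a pair. They were searched on both strands for TGGAAA, the core of the DNA element that NFAT5 binds, and for GGGCGG (GC box), CCAAT and TATAAA. The windows of the 3 neighbouring subunit genes are shown because these genes share a locus but had different patterns over the groups, and that of Wnk4 because it is the kinase gene above 0.5 FPKM whose window holds the TGGAAA letters. Capitals mark matches in either direction (CCGCCC and ATTGG are the reverse of GGGCGG and CCAAT), and each window is on the plus strand, at chr5:105415525-105415824 for Lrrc8b, chr5:105519221-105519520 for Lrrc8c, chr5:105699719-105700018 for the upstream window of Lrrc8d and chr11:101260317-101260616 for Wnk4.
Lrrc8b: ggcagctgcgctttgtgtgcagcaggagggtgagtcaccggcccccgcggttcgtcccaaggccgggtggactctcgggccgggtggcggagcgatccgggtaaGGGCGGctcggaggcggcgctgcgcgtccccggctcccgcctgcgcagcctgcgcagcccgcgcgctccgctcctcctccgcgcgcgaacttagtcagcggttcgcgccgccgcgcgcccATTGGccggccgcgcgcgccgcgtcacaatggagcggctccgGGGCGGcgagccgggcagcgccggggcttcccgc
Lrrc8c: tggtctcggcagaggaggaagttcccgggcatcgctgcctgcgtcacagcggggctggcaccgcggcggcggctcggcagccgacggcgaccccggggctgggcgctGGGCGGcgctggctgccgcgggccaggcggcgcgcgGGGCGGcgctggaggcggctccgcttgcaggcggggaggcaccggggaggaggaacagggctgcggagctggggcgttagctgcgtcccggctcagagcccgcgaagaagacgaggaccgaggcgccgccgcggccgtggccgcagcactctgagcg
Lrrc8d: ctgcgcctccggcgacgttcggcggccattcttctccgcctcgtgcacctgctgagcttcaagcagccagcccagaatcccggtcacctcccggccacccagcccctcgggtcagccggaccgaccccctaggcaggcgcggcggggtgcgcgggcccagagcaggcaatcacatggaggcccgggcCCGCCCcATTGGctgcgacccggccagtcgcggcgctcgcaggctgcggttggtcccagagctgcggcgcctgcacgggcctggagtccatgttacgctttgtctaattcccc
Wnk4: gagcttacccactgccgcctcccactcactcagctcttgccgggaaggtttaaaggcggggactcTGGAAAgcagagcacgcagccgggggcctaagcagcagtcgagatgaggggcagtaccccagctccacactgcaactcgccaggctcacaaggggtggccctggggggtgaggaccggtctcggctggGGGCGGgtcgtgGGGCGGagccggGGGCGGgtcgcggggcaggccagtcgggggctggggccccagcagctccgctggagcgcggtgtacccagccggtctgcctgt
The windows of Lrrc8b and Lrrc8c are rich in G and C (78% each, against a median of 52.7% over all windows), and that of Lrrc8d has 71.3%. TGGAAA was found in 3 of the 11 windows, those of Stk39, Wnk2 and Wnk4, and in 21.4% of all 32851 mouse promoter windows. No Lrrc8 window held it. GGGCGG was found in 10 of the 11 windows, all but that of Wnk2, and in 35.7% of all windows. CCAAT was found in 3 (Lrrc8b, the upstream window of Lrrc8d, and Wnk2) against 37.4% of all windows, and TATAAA in 0 against 13.6%. TGGAAA and the reverse of CCAAT can overlap by the letters TGG. A match is a description of these letters, and binding was not measured.

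Of the 10 genes, 8 reached 0.5 FPKM. In Scr_300 the order by FPKM, a scale per transcript length, was Oxsr1, Lrrc8b, Wnk4, Lrrc8d, Wnk1, Lrrc8c, Lrrc8e, Lrrc8a, Stk39 and Wnk2. Some neighbours in this order were close, with 6.60 FPKM for Lrrc8c and 6.47 for Lrrc8e, and 9.70 for Lrrc8d and 9.45 for Wnk1. Without a spread between libraries it cannot be said which neighbours differ. Wnk4 was highest and Oxsr1 second in Nfat5-KO_600, whereas Oxsr1 was highest in each of the other 3 groups, and Lrrc8c moved above Lrrc8d in that group alone.

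**Figure D1:**
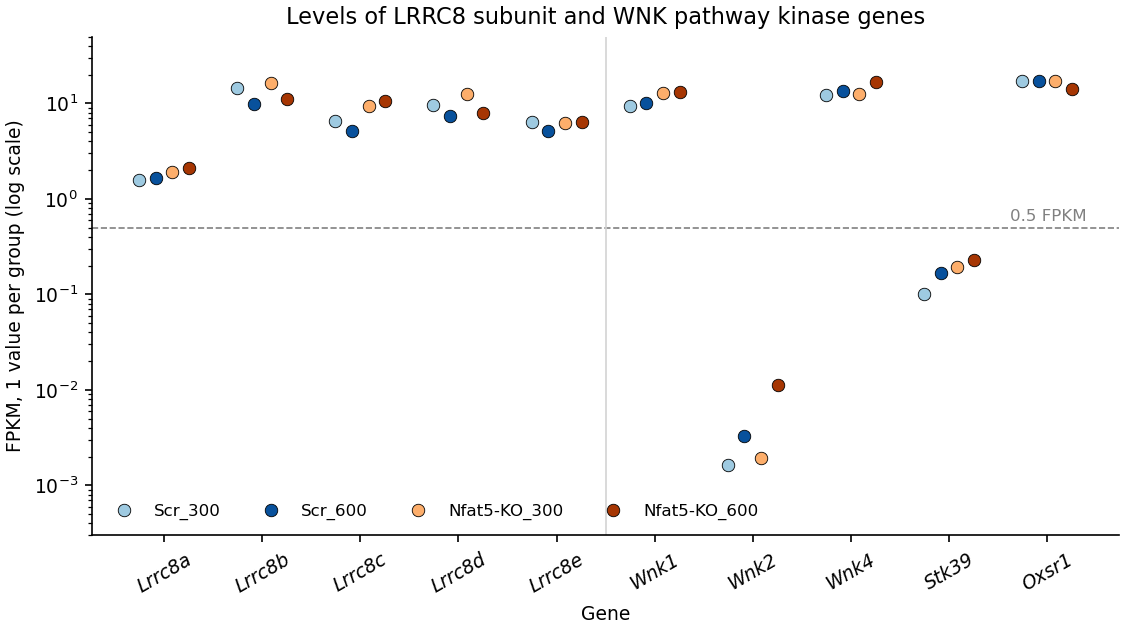
FPKM (log scale) of the 5 LRRC8 subunit genes and the 5 kinase genes, with 1 point for each of the 4 groups and no error bars because the table has 1 value per group. Wnk2 and Stk39 lie below the dashed line at 0.5 FPKM in every group, and Lrrc8a, at 1.58 to 2.12 FPKM, lies below the other 4 subunit genes.

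Lrrc8a, the obligatory subunit, had the lowest FPKM of the 5 subunit genes as deposited, with 1.58 FPKM in Scr_300, 1.65 in Scr_600, 1.93 in Nfat5-KO_300 and 2.12 in Nfat5-KO_600. The 2 knockout values lay above the 2 Scr values, by log2 0.27 at 300 and 0.34 at 600 mosmol/kg, short of 1.5-fold. With the higher osmolality the ratio was 0.06 in Scr and 0.13 in Nfat5-KO cells. The level of this gene has a particular limit. A read-through gene on the same strand, Gm28035, covers 2853 of its 4308 exon bases (66.2%), and with the antisense gene 1700084E18Rik 68.3% of its exon bases belong to more than 1 gene. Gm28035 was listed at 0 in 3 groups and at 0.00335 FPKM in Nfat5-KO_600. How reads in such shared exons were counted is not stated. If only the unshared 31.7% of the exon bases had contributed, Lrrc8a would have had 4.99 FPKM in Scr_300, 5.21 in Scr_600, 6.08 in Nfat5-KO_300 and 6.70 in Nfat5-KO_600, a calculation that was not tested. It leaves the ratios between groups nearly as they are, but Lrrc8a would then not be the lowest subunit gene at 600 mosmol/kg, where Lrrc8c and Lrrc8e had 5.11 and 5.09 FPKM in Scr_600 and Lrrc8e had 6.39 in Nfat5-KO_600.

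Lrrc8b, the gene of the least studied partner subunit, was the most abundant subunit transcript in each group. It had 14.4 FPKM in Scr_300, 9.87 in Scr_600, 16.4 in Nfat5-KO_300 and 11.2 in Nfat5-KO_600. Both values at 600 mosmol/kg were below both values at 300, and the log2 ratio was -0.54 in Scr and -0.54 in Nfat5-KO cells. Knockout cells had log2 ratios of 0.19 and 0.18 against Scr at 300 and 600 mosmol/kg. As deposited, the 4 values thus follow osmolality more than genotype, but this depends on the scaling. It held with median-of-ratios factors, where the osmolality ratios were -0.52 in Scr and -0.57 in Nfat5-KO cells. The knockout ratios with those factors were 0.18 at 300 and 0.13 at 600 mosmol/kg. With columns scaled to the same sum the osmolality ratios were -0.41 in Scr and -0.30 in Nfat5-KO cells. The knockout ratios were then 0.20 at 300 and 0.31 at 600 mosmol/kg. None of these ratios reached 1.5-fold.

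Lrrc8c, a partner subunit that supports strong chloride currents with LRRC8A, was the gene whose level differed most over the groups among the 8 above 0.5 FPKM. It had 6.60 FPKM in Scr_300, 5.11 in Scr_600, 9.32 in Nfat5-KO_300 and 10.6 in Nfat5-KO_600. Both knockout values were above both Scr values, with a log2 ratio of 0.49 at 300 mosmol/kg and of 1.04 (2.05-fold) at 600. The second was the only one of the 8 genes' ratios past 1.5-fold in a knockout comparison. Over the whole table tested, 9.84% of genes passed 1.5-fold upwards and 9.44% downwards in this comparison, so that 1 of 8 is close to the background, and 3.51% were as far up as Lrrc8c, or 0.965% of those that averaged 5 FPKM or more. In Scr cells the log2 ratio of 600 to 300 mosmol/kg was -0.36 and in Nfat5-KO cells 0.18, a difference of 0.55 that 8.79% of 12497 genes equalled or exceeded in this direction.

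Lrrc8d, the subunit whose channels also pass uncharged osmolytes, had 9.70 FPKM in Scr_300, 7.33 in Scr_600, 12.7 in Nfat5-KO_300 and 7.94 in Nfat5-KO_600. Like Lrrc8b it was lower at the higher osmolality in both genotypes, with ratios of -0.40 in Scr and -0.67 (1.60-fold lower) in Nfat5-KO cells. This was the only one of the 8 ratios past 1.5-fold in a comparison of osmolalities, and it was -0.43, short of the fold, when the columns were scaled to the same sum. In this comparison 14.1% of all genes tested passed 1.5-fold upwards and 13.8% downwards, so 1 such gene among 8 is close to the background. Against Scr, Lrrc8d was higher by 0.39 at 300 and by 0.11 at 600 mosmol/kg.

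Lrrc8e, a partner subunit with restricted expression among tissues, had 6.47 FPKM in Scr_300, 5.09 in Scr_600, 6.30 in Nfat5-KO_300 and 6.39 in Nfat5-KO_600. Scr_600 was the lowest, and the other 3 values lay between 6.30 and 6.47 FPKM. The log2 ratio of 600 to 300 mosmol/kg was -0.34 in Scr and 0.02 in Nfat5-KO cells (-0.01 with median-of-ratios factors). With columns scaled to the same sum it was -0.21 in Scr and 0.26 in Nfat5-KO cells. The knockout ratio was -0.04 at 300 and 0.32 at 600 mosmol/kg, all below 1.5-fold.

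Together the 5 subunit genes had 38.7 FPKM in Scr_300, 29.1 in Scr_600, 46.6 in Nfat5-KO_300 and 38.3 in Nfat5-KO_600. The sum was 1.20-fold and 1.32-fold higher in knockout than in Scr cells at 300 and 600 mosmol/kg. At 600 it was 0.750 times the value at 300 in Scr and 0.821 times in Nfat5-KO cells. The latter was 0.971 with columns scaled to the same sum and 0.803 with median-of-ratios factors. Lrrc8c gave 17.0% of the sum in Scr_300, 17.6% in Scr_600, 20.0% in Nfat5-KO_300 and 27.7% in Nfat5-KO_600, while Lrrc8d gave 25.05%, 25.2%, 27.3% and 20.7% in the same order. Lrrc8e gave 16.7%, 17.5%, 13.5% and 16.7%, and was lowest in Nfat5-KO_300. The ratio of Lrrc8c to Lrrc8e was 1.02 in Scr_300 and 1.00 in Scr_600 but 1.48 in Nfat5-KO_300 and 1.66 in Nfat5-KO_600, so it was higher in both knockout groups. The ratio of Lrrc8c to Lrrc8d was 0.680 in Scr_300, 0.697 in Scr_600 and 0.732 in Nfat5-KO_300, but 1.33 in Nfat5-KO_600, which is 1.91 times that of Scr_600. Such a ratio within a group does not depend on the scaling of the columns. Lrrc8a gave between 4.08% and 5.68% of the sum, and the other 4 genes together had between 16.6 and 23.5 times its FPKM. With Lrrc8a taken over its unshared exon bases, the share was between 11.8% and 16.0% and the other genes had between 5.26 and 7.44 times its FPKM.

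**Figure D2:**
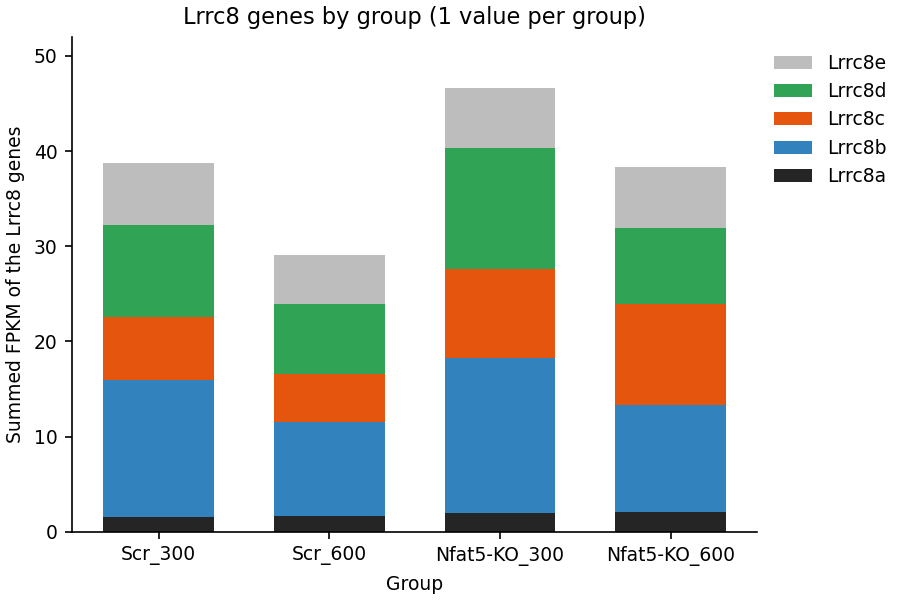
Summed FPKM of the 5 Lrrc8 genes in each group (bars, 1 value per group, no error bars), divided by gene. The total lay between 29.1 FPKM in Scr_600 and 46.6 in Nfat5-KO_300, and the Lrrc8c segment was widest in Nfat5-KO_600, at 10.6 FPKM or 27.7% of the bar.

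Wnk1, the broadly expressed WNK kinase, whose gene also gives a kidney form without the kinase domain that gene-level values do not tell apart, had 9.45 FPKM in Scr_300, 10.1 in Scr_600, 13.0 in Nfat5-KO_300 and 13.2 in Nfat5-KO_600. Here the 4 values followed genotype, with a log2 knockout ratio of 0.45 at 300 and 0.38 at 600 mosmol/kg. The ratio of 600 to 300 mosmol/kg was 0.10 in Scr and 0.03 in Nfat5-KO cells (-0.00 with median-of-ratios factors). With columns scaled to the same sum it was 0.23 in Scr and 0.27 in Nfat5-KO cells. All of these were short of 1.5-fold.

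Wnk4, the WNK kinase best known from the distal nephron, had 12.2 FPKM in Scr_300, 13.6 in Scr_600, 12.5 in Nfat5-KO_300 and 16.7 in Nfat5-KO_600. The 2 groups at 300 mosmol/kg were nearly equal, and Nfat5-KO_600 stood above the other 3. The log2 ratio of 600 to 300 mosmol/kg was 0.16 in Scr and 0.42 in Nfat5-KO cells, and the latter was 0.66, past 1.5-fold, with columns scaled to the same sum. The knockout ratio was 0.04 at 300 and 0.30 at 600 mosmol/kg. The antisense gene Gm11615 covers 306 of the exon bases of Wnk4 (7.38%), and since the counting is not stated to use strand, reads of the pair cannot be told apart there. The ratio of Wnk1 to Wnk4 was 0.777 in Scr_300, 0.746 in Scr_600, 1.04 in Nfat5-KO_300 and 0.790 in Nfat5-KO_600.

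Wnk2 was near 0 in every group, with 0.00164 FPKM in Scr_300, 0.00327 in Scr_600, 0.00196 in Nfat5-KO_300 and 0.0113 in Nfat5-KO_600. Wnk3, from the wider list of the network, was at 0.00671 FPKM or less, so Wnk1 and Wnk4 were the WNK genes with transcripts above 0.5 FPKM. No ratio is given for genes at such levels.

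Downstream of the WNK kinases, Oxsr1 was by far the more abundant of the pair that includes SPAK. It had 17.3 FPKM in Scr_300, 17.4 in Scr_600, 17.1 in Nfat5-KO_300 and 14.3 in Nfat5-KO_600. The first 3 were nearly equal and Nfat5-KO_600 was lower, by a log2 ratio of -0.28 against Scr_600 and -0.25 against Nfat5-KO_300. With columns scaled to the same sum these became -0.15 and -0.01. Stk39, which encodes SPAK, had 0.10 FPKM in Scr_300, 0.169 in Scr_600, 0.193 in Nfat5-KO_300 and 0.230 in Nfat5-KO_600, under 0.5 in each, and was not given a ratio. The FPKM of Oxsr1 was 172 times that of Stk39 in Scr_300, 103 times in Scr_600, 88.2 times in Nfat5-KO_300 and 62.4 times in Nfat5-KO_600, figures that rest on the low Stk39 values.

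Across the 8 genes, 6 were higher and 2 lower in Nfat5-KO_300 than in Scr_300. Their median log2 ratio was 0.23, and 0 were past 1.5-fold. Here 5.27% of all genes tested passed that fold upwards and 6.21% downwards, and the median ratio of all was -0.00. At 600 mosmol/kg 7 of 8 were higher in knockout cells, with a median of 0.31 against -0.02 over all genes tested, and 1, Lrrc8c, was past 1.5-fold. The genes higher in knockout cells made up 49.8% of all genes tested at 300 and 47.8% at 600 mosmol/kg. Between Scr_600 and Scr_300 4 of 8 were higher and 4 lower, with a median of -0.16 against -0.04 over all genes, and 0 were past 1.5-fold where 10.4% of all genes were higher and 9.01% lower by that fold. The 4 lower ones were Lrrc8b, Lrrc8c, Lrrc8d and Lrrc8e. In Nfat5-KO cells 5 of 8 were higher and 3 lower at 600 mosmol/kg, with a median of 0.02 against -0.04.

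**Figure D3:**
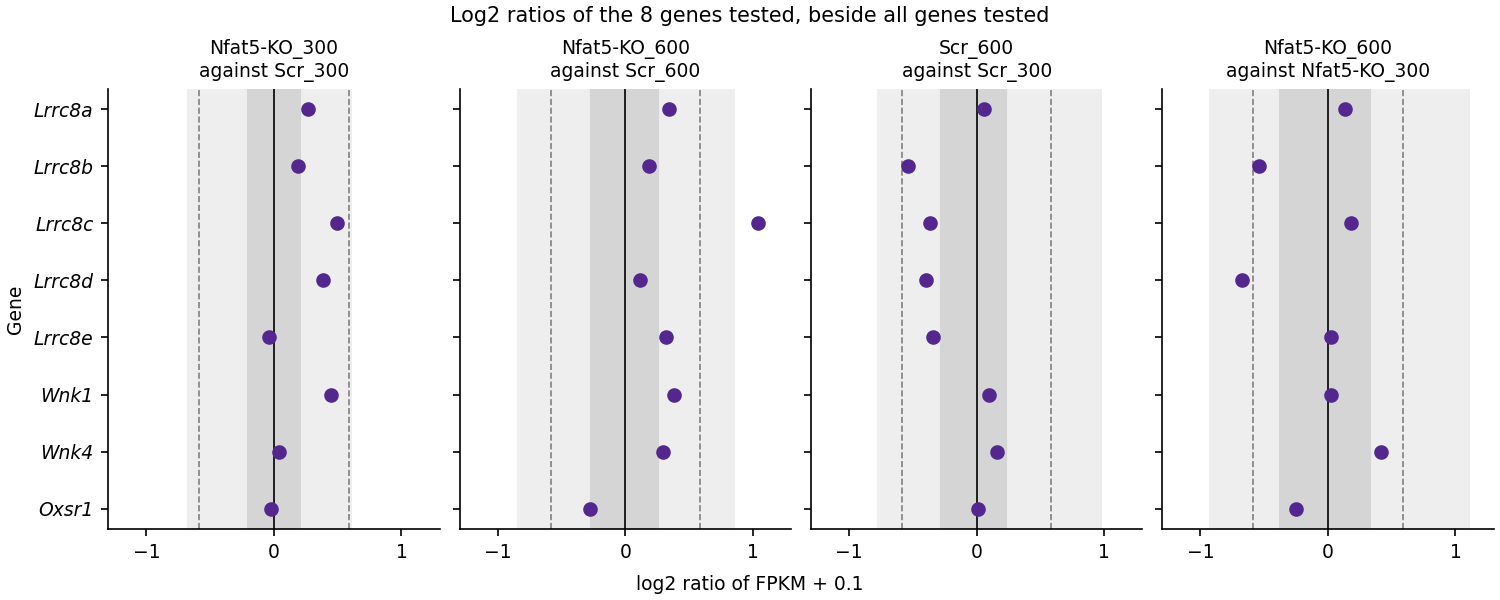
Log2 ratios of FPKM + 0.1 (points) of the 8 genes with at least 0.5 FPKM in the 4 comparisons, with the middle 50% (dark band) and 90% (pale band) of all genes tested and dashed lines at 1.5-fold. Lrrc8c in Nfat5-KO_600 against Scr_600 (1.04) and Lrrc8d in Nfat5-KO_600 against Nfat5-KO_300 (-0.67) are the points beyond a dashed line.

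The scale of the columns matters for the comparisons that involve 600 mosmol/kg. FPKM summed to 253756 in Scr_300, 231932 in Scr_600, 251080 in Nfat5-KO_300 and 212247 in Nfat5-KO_600, and scaling the columns to the same sum shifted the log2 ratios by a median of 0.13 in Nfat5-KO_600 against Scr_600, 0.13 in Scr_600 against Scr_300 and 0.24 in Nfat5-KO_600 against Nfat5-KO_300. Of the genes past 1.5-fold, the percentage that was higher went from 51.0% to 67.7%, from 53.6% to 70.0% and from 50.6% to 78.5% in these comparisons. The 2 knockout ratios of Lrrc8c kept their direction under this scaling, at 0.51 and 1.16.

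The hypertonic ratios of both genotypes, set side by side, place the 8 genes in different parts of the plane. Lrrc8b and Lrrc8d were lower at 600 mosmol/kg in both genotypes and Wnk4 was higher in both. Lrrc8c and Lrrc8e were lower in Scr cells and not lower in Nfat5-KO cells, and Oxsr1 was at 0.01 in Scr and -0.25 in Nfat5-KO cells. The Nfat5-KO ratio minus the Scr ratio was 0.55 for Lrrc8c, 0.36 for Lrrc8e, 0.26 for Wnk4, 0.07 for Lrrc8a, -0.00 for Lrrc8b, -0.07 for Wnk1, -0.26 for Oxsr1 and -0.28 for Lrrc8d. With columns scaled to the same sum every difference was larger by about 0.11, so that Lrrc8b came to 0.11 and Wnk1 to 0.04.

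**Figure D4:**
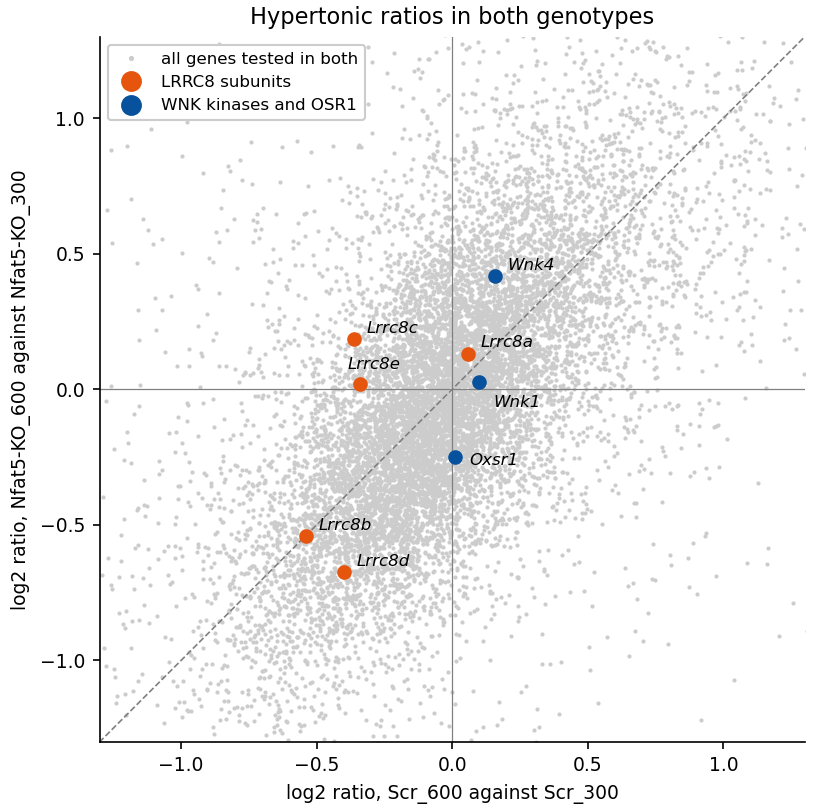
Log2 ratio of 600 to 300 mosmol/kg in Scr cells (x axis) and in Nfat5-KO cells (y axis) for the 8 genes named, over all 12497 genes tested in both (grey, 795 lie beyond the axes), with the line of equal ratios dashed. Lrrc8c and Lrrc8e lie above the line, Lrrc8b lies on it, and Lrrc8d and Oxsr1 lie below it.

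Because several of the genes are linked, their knockout ratios were set beside those of the other genes that start within 5 Mb. Around Lrrc8c the median neighbour was itself higher in knockout cells, with a log2 ratio of 0.25 over 77 genes at 300 and 0.29 over 82 genes at 600 mosmol/kg, and 61 of 77 and 60 of 82 neighbours were above 0. The median of chromosome 5 was 0.11 and 0.08. Lrrc8c exceeded its neighbours' median by 0.24 and 0.75, and at 600 mosmol/kg 8 of 82 neighbours were above it. Lrrc8b was below its neighbours' median in both comparisons, by -0.05 and -0.10, and Lrrc8d was above it by 0.15 at 300 and below by -0.18 at 600. Since Lrrc8b, Lrrc8c and Lrrc8d lie close together, their neighbours are largely the same genes. The neighbours of Wnk1 had medians of 0.24 and 0.16 and those of Lrrc8a of 0.18 and 0.09, so that Wnk1 exceeded its surroundings by 0.21 in both comparisons and Lrrc8a by 0.09 and 0.25. Those of Lrrc8e (0.00 and -0.10), Wnk4 (0.03 and -0.00) and Oxsr1 (-0.09 and -0.08) were close to 0 or below it. The median of all of chromosome 6, which holds Wnk1, was 0.17 at 300 and 0.14 at 600 mosmol/kg. For chromosomes 2, 8, 9 and 11, which hold Lrrc8a, Lrrc8e, Oxsr1 and Wnk4, the medians lay between -0.06 and -0.01. The number of copies of these regions in the clones was not measured, and the part of the surroundings in the ratios was not tested. For osmolality the neighbours of Lrrc8b and Lrrc8d were near 0 (from -0.03 to 0.02 in both genotypes), and Lrrc8b was lower than its neighbours' median by -0.50 in Scr and -0.54 in Nfat5-KO cells.

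**Figure D5:**
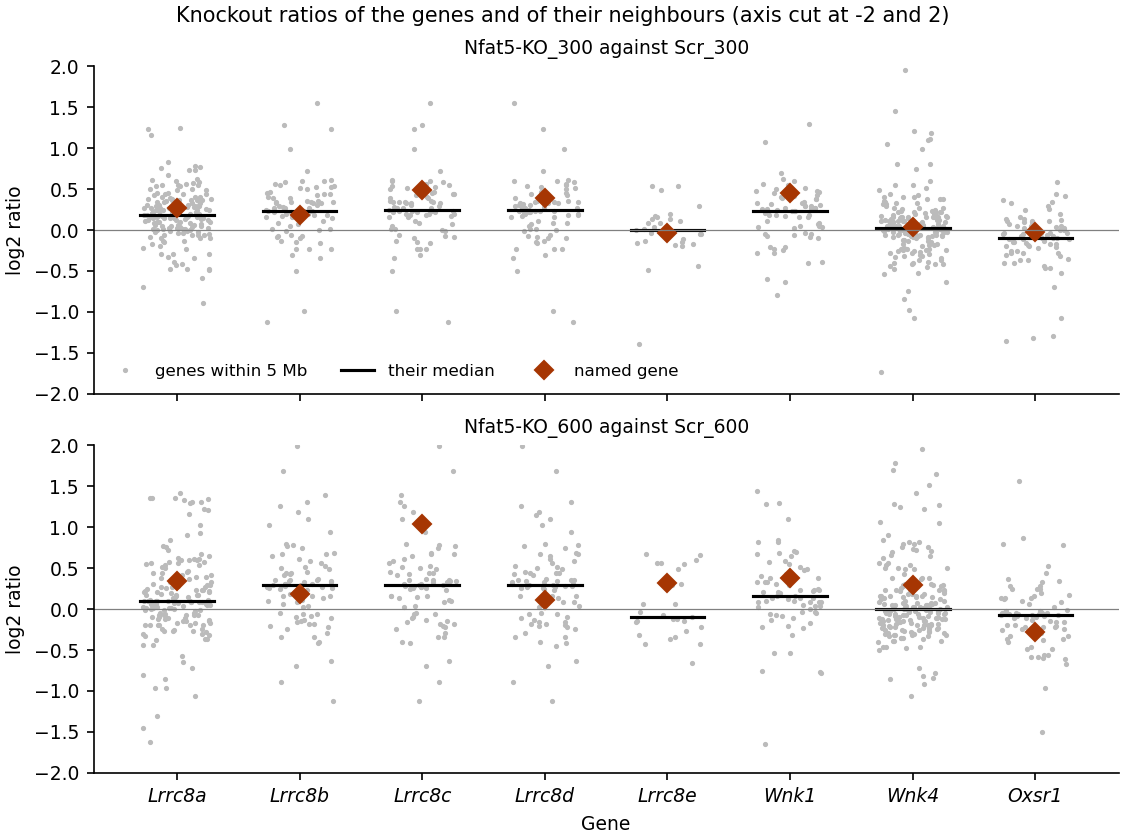
Log2 ratio of knockout against Scr cells at 300 (upper) and 600 mosmol/kg (lower) for each of the 8 genes (diamonds), the other genes that start within 5 Mb (grey points) and their median (bars), with 4 and 10 grey values beyond the axes. The medians around Lrrc8b, Lrrc8c and Lrrc8d, whose neighbours are largely the same genes, lie between 0.24 and 0.29. Lrrc8c at 600 mosmol/kg, at 1.04, stands above most of its neighbours.

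The genes whose 4 values lay nearest to the pattern of Lrrc8a, among 7147 genes that averaged 5 FPKM or more, were Bcl2l13, Tbc1d13 and Atmin, at distances of 0.02, 0.04 and 0.05 on the log2 scale over 4 group values. Bcl2l13 had 9.26, 9.60, 11.2 and 12.1 FPKM in Scr_300, Scr_600, Nfat5-KO_300 and Nfat5-KO_600. The pattern was common, with 206 genes within 0.2 of it. For Lrrc8c, 3 genes lay within 0.2, namely Rflnb, Wls and Hspa13 at 0.11, 0.15 and 0.18. Lrrc8c was taken because its range over the same values was the largest of the 8 genes. Few genes are then near it by that choice, so the 3 and the 206 cannot be compared. Rflnb had 8.54 FPKM in Scr_300, 6.55 in Scr_600, 11.2 in Nfat5-KO_300 and 13.5 in Nfat5-KO_600.

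The wider network of the WNK kinases was followed in 13 genes for their scaffolds, ubiquitin ligase parts, phosphatase and regulators, of which 9 or 10 were tested in each comparison. In Nfat5-KO_600 against Scr_600 2 of 10 passed 1.5-fold downwards and 0 upwards, where 9.44% and 9.84% of all genes tested did, with a median log2 ratio of -0.12 over the list against -0.02 over all genes. Sgk1, the aldosterone-induced kinase that acts on WNK4 and on sodium channel turnover, had 0.262 FPKM in Scr_300, 4.28 in Scr_600, 0.444 in Nfat5-KO_300 and 0.513 in Nfat5-KO_600. It was high in Scr_600 alone, with a log2 ratio of 3.60 to Scr_300 and of -2.84 in Nfat5-KO_600 against Scr_600. Cab39l, which encodes a MO25 scaffold that activates SPAK and OSR1, had 8.69, 8.22, 6.85 and 4.86 FPKM in the same order of groups and had a ratio of -0.75 for the knockout at 600 mosmol/kg. The other genes named by their range, Rell1 with 33.6, 23.6, 27.7 and 22.0 FPKM and Relt with 0.936, 0.711, 1.15 and 0.790, passed 1.5-fold in none of the comparisons. RELT family proteins bind SPAK and OSR1. In Nfat5-KO_300 against Scr_300 0 of 9 list genes passed the fold, where 5.27% of all genes did upwards and 6.21% downwards. In Scr_600 against Scr_300 1 of 10 passed it (Sgk1, upwards, where 10.4% of all genes did). Sgk1 entered that comparison only through Scr_600, so its call was fixed in advance. In Nfat5-KO_600 against Nfat5-KO_300 0 of 10 passed it, where 14.1% of all genes did upwards and 13.8% downwards.

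The kinases act on cation-chloride cotransporters, of whose genes those with at least 1 FPKM are given. Slc12a7 (KCC4) had 1.43 FPKM in Scr_300, 2.44 in Scr_600, 1.82 in Nfat5-KO_300 and 3.00 in Nfat5-KO_600, and Slc12a4 (KCC1) had 3.24, 4.97, 4.76 and 6.66. Both were higher at 600 mosmol/kg in both genotypes, with log2 ratios of 0.73 and 0.60 in Scr and 0.69 and 0.47 in Nfat5-KO cells. Slc12a2, the gene of the chloride importer NKCC1, was the most abundant of the list and lay the other way, with 21.6, 15.8, 25.3 and 20.5 FPKM and ratios of -0.45 and -0.30. By the 1.5-fold rule Slc12a7 was higher with osmolality in both genotypes and Slc12a4 in Scr cells, and none of these genes passed it in a knockout comparison. Slc12a4 in Nfat5-KO_600 against Nfat5-KO_300 came to 0.71 with columns scaled to the same sum. Under this scaling the osmolality ratios of Slc12a2 were -0.32 in Scr and -0.06 in Nfat5-KO cells.

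Of 12 genes for other volume-activated and chloride channels, 9 were tested. Ano1, a calcium-activated chloride channel gene, had 10.9 FPKM in Scr_300, 6.35 in Scr_600, 18.2 in Nfat5-KO_300 and 18.9 in Nfat5-KO_600. The order of its 4 values was that of Lrrc8c, with log2 ratios of 0.74 and 1.56 for the knockout at 300 and 600 mosmol/kg, -0.77 for osmolality in Scr and 0.05 in Nfat5-KO cells. Tmem206, which encodes the acid-activated chloride channel PAC, had 11.3, 6.47, 12.9 and 7.60 FPKM and, as Lrrc8b and Lrrc8d, was lower at 600 mosmol/kg in both genotypes, by log2 ratios of -0.80 and -0.75. Ttyh3 had 11.8, 18.8, 22.7 and 26.5 FPKM, with a knockout ratio of 0.94 at 300 mosmol/kg, and Clcn2 had 1.20, 1.53, 1.78 and 2.27 FPKM and passed 1.5-fold in none of the comparisons. In all, 2 of 9 were higher and 1 lower by 1.5-fold in Nfat5-KO_300 against Scr_300, 1 higher and 0 lower in Nfat5-KO_600 against Scr_600, 1 higher and 2 lower in Scr_600 against Scr_300, and 1 higher and 2 lower in Nfat5-KO_600 against Nfat5-KO_300, with medians of 0.18, 0.23, -0.22 and 0.05. Over all genes tested, the shares higher and lower by that fold were 5.27% and 6.21%, 9.84% and 9.44%, 10.4% and 9.01%, and 14.1% and 13.8% in the same order. With columns scaled to the same sum, Clcn2 and Ttyh3 passed the fold in Nfat5-KO_600 against Scr_600 (0.66 and 0.62), and Tmem206 no longer did in Nfat5-KO_600 against Nfat5-KO_300 (-0.51).

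The carriers that bring in the organic osmolytes which the LRRC8 channel lets out were all 3 more than 1.5-fold higher in Scr_600 than in Scr_300. Over all genes tested, 10.4% were higher by that fold. Slc6a12, however, entered this comparison only through Scr_600, so its call upwards was fixed in advance. Slc5a3 and Slc6a6 were above 0.5 FPKM in both groups. Slc6a12, the betaine transporter gene, had 0.00512 FPKM in Scr_300, 2.10 in Scr_600, none listed (0) in Nfat5-KO_300 and 0.135 in Nfat5-KO_600. Slc5a3, the myo-inositol transporter gene, had 2.12, 4.69, 1.87 and 2.27 FPKM, and Slc6a6, the taurine transporter gene, had 18.3, 33.7, 12.7 and 33.0. In Nfat5-KO_600 against Scr_600, Slc6a12 and Slc5a3 were lower by log2 ratios of -3.23 and -1.02, whereas Slc6a6 had -0.03 (0.09 with columns scaled to the same sum). Of all genes tested in this comparison, 9.44% were lower by 1.5-fold. Slc6a12 again entered only through Scr_600, so its call downwards was also fixed in advance. In Nfat5-KO_600 against Nfat5-KO_300, 1 of the 2 tested, Slc6a6, was past 1.5-fold, with a ratio of 1.37, where 14.1% of all genes were higher. Against these carriers, the LRRC8 subunit and WNK pathway genes above 0.5 FPKM spanned smaller ranges over the 4 groups. They ran from 0.28 on the log2 scale for Oxsr1 to 1.04 for Lrrc8c, where Slc6a6 spanned 1.41 and Slc5a3 1.29. The span of Slc6a12, 4.46, starts from a value listed at 0, so its size depends on the 0.1 added. Stk39 and Wnk2, below 0.5 FPKM, were left out of these spans.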

How the data were processed

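RNA-seq values of 12 mpkCCD libraries in 4 groups were used. The authors used HISAT2 to map the paired-end reads to GRCm38/mm10 and HTSeq to count them, and deposited FPKM values, which their methods call RPKM. Tool versions, the annotation release, the use of strand and the way in which libraries were combined into 1 value per group are not given in the sources used here. Read depth is unknown, so no interval was calculated.

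The table had 54839 rows, of which 2436 held no value and 311 were exact duplicates, and 52015 genes were used. The limma tests planned for values per library need replicates and were replaced. Ratios of FPKM + 0.1 on the log2 scale were calculated for genes that reached 0.5 FPKM in 1 or both groups, and ratios of at least 1.5-fold were counted. On simulated data for Nfat5-KO_300 against Scr_300, 200 of 200 altered genes among 12591 were recovered with 0 others called. This run checked that the code works. How often a ratio of the measured values is called wrongly or missed was not tested. Alternatives were pseudocounts of 1 and 0.01, other filters, median-of-ratios factors, columns scaled to the same sum and folds of 1.25 and 2. Genes, lists and tests were chosen with earlier results of these data known. Named in the text were all 10 genes, Nfat5, up to 4 genes per list with the largest log2 range among those with at least 1 FPKM, and the 3 nearest patterns to Lrrc8a and to the gene with the largest range. Wnk3 was named after its values were seen. A withheld item is not reported here. Positions came from GENCODE M21 (GRCm38) and promoter sequences from RefSeq (GRCm38.p6). Python 3.11.15, numpy 2.4.6, pandas 2.3.3 and matplotlib 3.10.9 were used.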

Additional observations from a re-analysis of the deposited data

Results flagged for a closer look

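The ratios of Lrrc8c for 600 against 300 mosmol/kg had opposite signs in the 2 genotypes. It was -0.36 on the log2 scale in Scr cells (6.60 FPKM in Scr_300 and 5.11 in Scr_600) and 0.18 in Nfat5-KO cells (9.32 in Nfat5-KO_300 and 10.6 in Nfat5-KO_600), a difference of 0.55. The difference was not tested, because each group has 1 value. Of the channel and kinase genes it was the only one whose 2 ratios differed in sign with both at least 0.1 from 0, and 8.79% of all genes tested in both genotypes had a difference as large in this direction.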

How the results depend on the processing

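Of 224 recalculated ratios of the 8 genes, 222 stayed on the same side of 1.5-fold and 0 reversed a call. The exceptions came with columns scaled to the same sum, where Lrrc8d in Nfat5-KO_600 against Nfat5-KO_300 fell short at -0.43 and Wnk4 passed at 0.66. Apart from the subtraction of neighbours, the sign changed in 2 of 192, for ratios of at most 0.03. The 224 and the 192 both include ratios under other filters, which could not differ because all 8 genes pass those filters. The genes past 1.5-fold over the whole table, 1459, 2518, 2510 and 3628 in the order Nfat5-KO_300 against Scr_300, Nfat5-KO_600 against Scr_600, Scr_600 against Scr_300 and Nfat5-KO_600 against Nfat5-KO_300, became 657, 1402, 1446 and 2233 with a pseudocount of 1, 3549, 5128, 4852 and 6212 with no filter, 3964, 5414, 5404 and 7006 at the lower alternative fold, and 530, 972, 992 and 1346 at 2-fold. With a mean of at least 1 FPKM the first became 924. Of the 8 genes of the channel and the WNK pathway tested, 0, 1, 0 and 1 were past the fold in the same order. These counts became 3, 3, 4 and 3 at the lower alternative fold, and the last became 0 at 2-fold. Of all genes tested, 3964 of 12704, 5414 of 13063, 5404 of 12929 and 7006 of 12982 passed the lower fold. The counts among the 8 genes were thus near that background or below it. The FPKM of Oxsr1 over that of Stk39 became 86.8 in Scr_300, 65.0 in Scr_600, 58.5 in Nfat5-KO_300 and 43.8 in Nfat5-KO_600 with 0.1 added to both. Chosen after seeing the data, taking Lrrc8a over its unshared exon bases put its share of the summed Lrrc8 FPKM at 11.8% in Scr_300, 16.0% in Scr_600, 12.0% in Nfat5-KO_300 and 15.6% in Nfat5-KO_600. The subtraction of the neighbours' median, also chosen after seeing the data, moved no gene across 1.5-fold but gave 7 of 32 ratios another sign, the largest of them that of Lrrc8b in Nfat5-KO_300 against Scr_300 (0.19 to -0.05). No subunit was under 0.5 FPKM, so the shares without such subunits could not differ and were not recalculated. Leaving out libraries could not be done. No paired analysis was possible because the table has 1 value per group. Without values per library, a difference between groups cannot be set against the spread between cultures or between clones N1 and N3.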
